A study of Camellia sinensis with 24 samples.

Results

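The data are read counts from roots of the tea plant (Camellia sinensis) of genotype “1511”, on the K-free side of split-root plants (Sp.SK) and on plants with K on both sides (U.NK). The 6 libraries were taken by genotype and treatment label, 3 of Sp.SK and 3 of U.NK, out of 24 libraries in the series. “1511” is a single F1 individual of a cross of tea cultivars, multiplied as cuttings, and is described in the study as tolerant of low K availability. The plants grew 12 to a hydroponic box, with the roots spread over 2 compartments, and were cultured with 1 mM K2SO4 for 60 days before the treatments ran for 5 days. On Sp.SK the sampled roots stood in 0 mM K2SO4 while the other side of the same plants (Sp.NK) stood in 1 mM. The U.NK plants had 1 mM K2SO4 on either side, and the other nutrients were the same in all treatments. The question is how roots without K differ when the plant is still fed by its other side. Levels in Sp.NK, in roots without K on both sides (U.SK) and in the low-K-intolerant genotype “1601” are given where they bear on these libraries.

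Potassium is taken up by root cells through high-affinity transporters of the HAK/KUP/KT family and through Shaker-type channels, and is kept at a steady level in the cytosol by exchange with the vacuole. In Arabidopsis, low external K is sensed within hours. Calcium sensors and their partner kinases, the CIPKs, then activate channels and transporters, while jasmonate, ethylene and reactive oxygen carry part of the signal. In a split-root plant both sides share a shoot, and K moves readily in xylem and phloem. Sp.SK and U.NK differ both in local K and in the supply to the whole plant, which their comparison cannot tell apart. Sp.SK and Sp.NK are sides of the same plants and differ in local K.

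Between 15798906 and 26309637 reads were counted on genes in the Sp.SK libraries, against 16432754 to 19815566 in the U.NK libraries. Levels below are CPM, read counts scaled to a common library size with TMM factors, which set most genes equal between libraries. The U.NK libraries stood apart from each other. On the first principal component of the 12 “1511” libraries, which held 55.1% of the variance, Sp.SK replicates 1 to 3 lay at −90.1, −53.1 and −44.9, and U.NK replicates 1 to 3 at 5.8, 113.3 and −68.4. U.NK replicate 2 correlated with U.SK libraries at a mean r of 0.961 and with its own group at 0.939. U.NK replicate 3 correlated with Sp.SK libraries at a mean r of 0.973 and with its own group at 0.947. These are descriptions over log2 CPM of the genes tested, and labels were kept as deposited. The biological coefficient of variation, the spread of a gene between replicates, was 0.244 in Sp.SK and 0.336 in U.NK. Green-tissue genes such as those of chlorophyll binding and photosystems summed to 733, 855 and 920 CPM in Sp.SK libraries and 799, 1097 and 828 CPM in U.NK libraries, so they were low and overlapped. The methods give 3 replicates per treatment in this culture but do not say which box or plants each library came from, so the tests measure the spread between these libraries, part of which may be technical. In bulk roots, fewer cells of a type and less RNA per cell cannot be told apart.

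**Figure D1:**
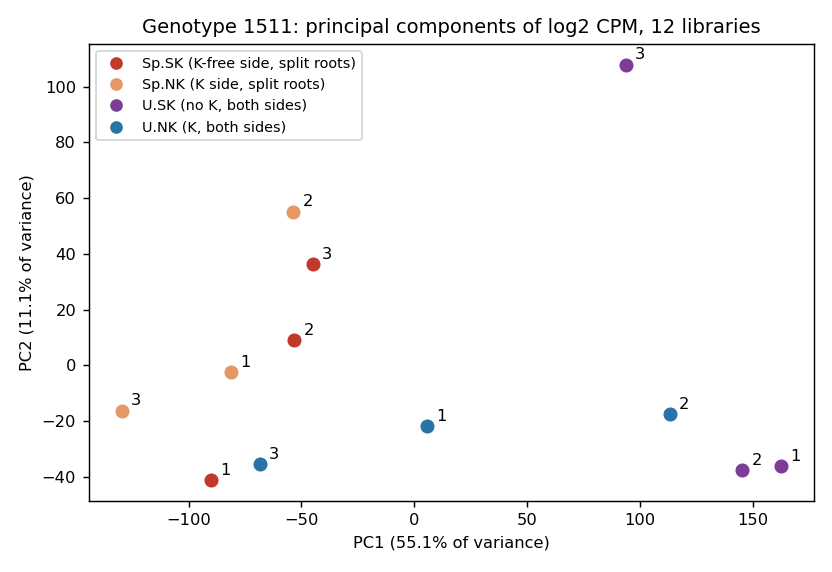
Principal components of log2 CPM in the 12 libraries of “1511”, with PC1 on the x axis and PC2 on the y axis, 1 point per library, coloured by treatment and numbered by replicate. U.NK replicate 2 lies at 113.3 on PC1 among the U.SK libraries, and U.NK replicate 3 at −68.4 among the split-root libraries.

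No single gene passed edgeR's test between Sp.SK and U.NK. edgeR's quasi-likelihood test on 24 libraries called 0 of 35557 genes (0% of those tested) at the threshold of 0.05 after Benjamini-Hochberg adjustment, and the lowest adjusted p-value was 0.257. At an unadjusted p-value under 0.05 there were 4455 genes (12.5% of those tested), 2298 higher (6.46%) and 2157 lower (6.07%) in Sp.SK. In 2519 genes (7.08% of those tested) all 3 Sp.SK libraries lay above all 3 U.NK libraries, and in 2417 (6.8%) all 3 lay below. Below, “without overlap” means this separation, and no gene described as higher or lower had passed edgeR's test. The count of calls turned on 1 library and on the method. Without U.NK replicate 3, 1123 genes were called (3.08%), of which 761 were higher (2.09%) and 362 lower (0.994%). Without U.NK replicate 2, 0 genes were called, and 1648 were under 0.05 before adjustment (2.98% of those tested higher and 1.55% lower). Without U.NK replicate 3, 12.4% were higher and 10% lower by that measure. DESeq2 on the 6 libraries called 180 genes, 47 of them higher, and limma voom with quality weights called 6000, 3557 of them higher.

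Genes of small wound-induced proteins were lower on Sp.SK. They form a plant family whose members were first known from wounded tissue and whose function is largely unknown. Of 27 genes with this Pfam entry, 14 were tested, and 9 of these (64.3%) were lower in Sp.SK without overlap, against 6.8% of all genes tested. None was higher without overlap, and their median log2 fold change was −2.34, against 0 for all genes tested. The family was noticed in the data and not listed beforehand. Their summed level was 45.1, 55.9 and 32.8 CPM in Sp.SK libraries, against 131, 250 and 142 CPM in U.NK libraries, with no overlap. It was 42.8, 34.2 and 69.5 CPM in Sp.NK libraries, so both sides of the split-root plants lay below every U.NK library. In U.SK it was 178, 194 and 51.1 CPM, and replicate 3 lay with the split-root libraries. In “1601” it was 53.9, 22.7 and 33.5 CPM in Sp.SK libraries and 87.2, 201 and 118 CPM in U.NK libraries. In that genotype 8 of 14 members (57.1%) were lower without overlap, against 16.7% of all genes, and these 8 were among the 9 of “1511”. At an unadjusted p-value under 0.05, 10 members were lower in “1511” with all libraries. Dropping U.NK replicate 2 gave 7, and dropping U.NK replicate 3 gave 10.

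**Figure D2:**
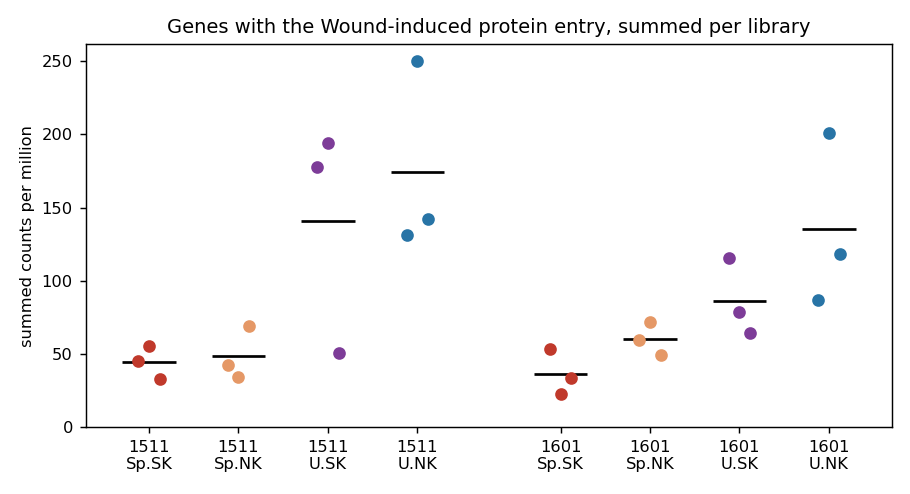
Summed CPM (y axis) of the 14 tested genes with the Wound-induced protein entry, 1 point per library and a bar at the mean of 3 libraries, by genotype and treatment on the x axis. In both genotypes every Sp.SK library lies below every U.NK library, at 32.8 to 55.9 against 131 to 250 in “1511”.

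TEA019758 (scaffold 10946, positions 177477 to 182605, plus strand, 4 exons) had 1.2, 0.852 and 0.508 CPM in Sp.SK libraries, against 6.5, 19.8 and 6.59 CPM in U.NK libraries. Its log2 fold change was −3.63 ± 0.9 (SE, n = 3 each, edgeR quasi-likelihood test, unadjusted p = 0.000634, adjusted p = 0.278). A newly assembled member (scaffold 825, positions 353742 to 356663, plus strand) had 2.65, 3.41 and 3.11 CPM in Sp.SK libraries and 12.9, 54.3 and 14.5 CPM in U.NK libraries. In both genes U.NK replicate 2 was the highest, and the other replicates were still above every Sp.SK library. Another newly assembled member (scaffold 730, positions 40092 to 74200, minus strand) had 9.17, 9.31 and 5.2 CPM in Sp.SK libraries and 34.4, 67.2 and 34.9 CPM in U.NK libraries. It overlaps another newly assembled gene on the opposite strand, and the counting is not stated to use strand. The members are close relatives and reads that match several of them may have been split, so single members are less certain than their sum. A gene with no Pfam entry, TEA025762, had a like pattern, with 13.7, 21.3 and 14.7 CPM in Sp.SK libraries and 127, 310 and 89.2 CPM in U.NK libraries, and was noticed in the same way.

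Among K transporters and channels, 75 of 98 genes were tested. Of these 7 were higher (9.33%) and 4 lower (5.33%) in Sp.SK without overlap, near the shares of all genes, and the median log2 fold change was 0. The examples of this and the following lists are members with low unadjusted p-values, chosen after their values were seen. TEA021660 (scaffold 3619, positions 809020 to 818817), a transporter of the HAK/KUP/KT family, had 11.7, 9.19 and 8.98 CPM in Sp.SK libraries and 2.84, 3.71 and 3.38 CPM in U.NK libraries. Its log2 fold change was 1.59 ± 0.42 (SE, n = 3 each, edgeR, unadjusted p = 0.00108, adjusted p = 0.278), and the groups did not overlap. DESeq2 on the 6 libraries called it (adjusted p = 8.58e-05). In Sp.NK libraries it had 13.4, 13.2 and 7.83 CPM, so the side with K was as high. In U.SK libraries it had 2.04, 2.41 and 10.7 CPM, with replicates 1 and 2 below every U.NK library and replicate 3 in the Sp.SK range. In “1601” it had 15, 8.55 and 9.5 CPM in Sp.SK libraries and 19.8, 16 and 14.7 CPM in U.NK libraries, and the difference between genotypes did not pass the test (adjusted p = 0.117). TEA008833, of the same family, had 17.2, 21.3 and 27.2 CPM in Sp.SK libraries and 10.7, 9.28 and 10.4 CPM in U.NK libraries, and was called by DESeq2 as well (adjusted p = 0.0108). By the deposited FPKM values it had 9.87, 9.57 and 9.04 in Sp.NK libraries and 7.99, 9.81 and 12.4 in Sp.SK libraries. U.NK libraries had 4.94, 4.29 and 4.78, so the side with K was above U.NK too. On U.SK the gene had 10.95, 6.23 and 26.9 CPM. In “1601” its level was 18.5, 25.5 and 25.1 CPM on Sp.SK and 11.7, 14.1 and 11.6 CPM on U.NK, again without overlap and in the same direction. TEA025618, a cyclic nucleotide-gated channel by its domains, had 12.1, 11.5 and 10.7 CPM in Sp.SK libraries and 7.53, 5.99 and 8.98 CPM in U.NK libraries. By FPKM it had 5.43, 5.63 and 4.94 in Sp.NK libraries and 5.6, 5.3 and 4.9 in Sp.SK libraries, so the side with K was as high. In the other direction, the Shaker-type channel gene TEA010797 had 16.6, 17.6 and 13.9 CPM in Sp.SK libraries and 31.1, 40.8 and 18.5 CPM in U.NK libraries. By FPKM it had 8.14, 8.57 and 5.62 in Sp.NK libraries and 9.41, 9.86 and 7.72 in Sp.SK libraries, so the side with K was as low. The K transporter gene TEA005066, with a mean FPKM of 117 in Sp.SK and 172 in U.NK, had 193, 327 and 325 CPM in Sp.SK libraries and 401, 576 and 255 CPM in U.NK libraries, and these overlapped.

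CIPK kinases and PP2C phosphatases stood on both sides, with shares not far from those of all genes. Of 148 such genes, 11 were higher (7.43%) and 14 lower (9.46%) without overlap, against 7.08% and 6.8% of all genes. CIPK-type genes, those with the NAF domain entry, had 6 of 30 higher (20%) and 2 lower (6.67%). PP2C genes had 5 of 117 higher (4.27%) and 11 lower (9.4%). At an unadjusted p-value under 0.05, the CIPK-type genes had 3 higher and 1 lower, and the PP2C genes 5 and 15. By this measure 6.46% of all genes were higher and 6.07% lower. The CIPK-type kinase gene TEA027022 had 67.1, 78 and 66.9 CPM in Sp.SK libraries, against 141, 272 and 154 CPM in U.NK libraries. Another CIPK-type gene, TEA016252, was on the opposite side, with 13.1, 17.6 and 14.6 CPM in Sp.SK libraries and 9.18, 7.48 and 10.1 CPM in U.NK libraries. PP2C phosphatases, which counter such kinases, included TEA020292 with 149, 158 and 176 CPM in Sp.SK libraries and 309, 436 and 223 CPM in U.NK libraries. The PP2C gene TEA004128 had 5.84, 7.06 and 8.59 CPM in Sp.SK libraries and 2.94, 2.99 and 3.96 CPM in U.NK libraries. No pair of these groups overlapped.

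The proton pumps and cation exchangers, which power uptake and vacuolar storage, had 8 of 151 members higher (5.3%) and 11 lower (7.28%) without overlap. These shares were near the 7.08% and 6.8% of all genes. Both pyrophosphatases named here, proton pumps of the vacuole membrane, were lower. TEA015119 had 925, 1405 and 1355 CPM in Sp.SK libraries and 2617, 4525 and 1424 CPM in U.NK libraries. Its U.NK replicate 3 was just above the highest Sp.SK library, and on U.SK it reached 5757, 5362 and 2346 CPM. TEA024786 had 57.2, 98.6 and 83.5 CPM in Sp.SK libraries and 125, 246 and 111 CPM in U.NK libraries. Summed over the list, the level was 7101, 7969 and 7314 CPM in Sp.SK libraries and 9239, 10930 and 7969 CPM in U.NK libraries, so only U.NK replicate 3 reached the Sp.SK range.

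Transporters of other solutes differed by list. For all genes tested the shares without overlap were 7.08% higher and 6.8% lower. Of 97 sugar transporters, 14 were higher (14.4%) and 5 lower (5.15%) without overlap, whereas at an unadjusted p-value under 0.05 there were 10 on each side. TEA003824 had 32, 39.3 and 45.1 CPM in Sp.SK libraries and 19.7, 13.7 and 25.6 CPM in U.NK libraries. TEA018532, a lower member, had 2.58, 1.89 and 3.56 CPM in Sp.SK libraries and 12.5, 25.7 and 5.48 CPM in U.NK libraries. Despite the counts, the summed level of the list overlapped, at 3008, 3702 and 3780 CPM in Sp.SK libraries and 4202, 7110 and 3018 CPM in U.NK libraries. Metal ion transporters had 7 of 54 members higher (13%) and 1 lower (1.85%), and nitrate, peptide and ammonium transporters 9 of 87 higher (10.3%) and 2 lower (2.3%). Phosphate and sulfate transporters had 2 of 46 higher (4.35%) and 4 lower (8.7%). The amino acid transporter TEA019802 had 99.8, 95 and 118 CPM in Sp.SK libraries and 39.1, 16.4 and 81.2 CPM in U.NK libraries. Aquaporins, the water channels that root cells express strongly, had 1 of 42 members higher (2.38%) and 3 lower (7.14%), the latter near all genes. Among them a newly assembled gene (scaffold 1277, positions 384058 to 392959, plus strand), which overlaps another on the opposite strand, had 17.1, 27.3 and 30.8 CPM in Sp.SK libraries and 43.3, 67.7 and 31.8 CPM in U.NK libraries. TEA013255 varied widely, with 4.98, 0.487 and 2.26 CPM in Sp.SK libraries and 18.8, 70.2 and 6.47 CPM in U.NK libraries.

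Genes of organic acid synthesis and release, which in many plants acidify the rhizosphere and free minerals, numbered 155 in the test. Without overlap, 8 were higher (5.16%) and 15 lower (9.68%), against 7.08% and 6.8% of all genes. A malate channel gene of the ALMT family, TEA013305 (scaffold 478, positions 826479 to 830675), had 11.7, 9.49 and 11.4 CPM in Sp.SK libraries, against 3.4, 1.38 and 6.53 CPM in U.NK libraries. Another ALMT gene, TEA032049, had 27.6, 25.5 and 28.1 CPM in Sp.SK libraries and 37.8, 60.4 and 30.1 CPM in U.NK libraries. A citrate synthase gene, TEA005456, had 242, 262 and 263 CPM in Sp.SK libraries, against 329, 510 and 280 CPM in U.NK libraries. The transporter TEA032293 of the MATE family, which exports citrate and other compounds in several plants, had 3.37, 4.02 and 4.29 CPM in Sp.SK libraries and 10.6, 21.9 and 5.77 CPM in U.NK libraries. Thus the members of this list that stood apart did not share a direction, and the summed level overlapped (4963, 4721 and 4847 CPM in Sp.SK, against 4982, 4576 and 5405 CPM in U.NK).

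Among cell wall genes of growing cells, more expansin-type genes were higher than lower on Sp.SK in “1511”, and xyloglucan endotransglycosylases leaned both ways. Of 70 wall-loosening genes (expansins and xyloglucan endotransglycosylases), 11 were higher (15.7%) and 2 lower (2.86%) without overlap, against 7.08% and 6.8% of all genes. At an unadjusted p-value under 0.05, 16 were higher and 9 lower with all libraries, against 6.46% and 6.07% of all genes. Leaving out U.NK replicate 2 gave 11 and 0, against 2.98% and 1.55% of all genes. Leaving out U.NK replicate 3 gave 25 and 14, against 12.4% and 10% of all genes. Expansin-type genes, those with the Pfam entry Pollen allergen, had 7 of 35 members higher (20%) and 1 lower, with a median log2 fold change of 0.56. The 35 genes with the xyloglucan endotransglycosylase C-terminal entry had 4 higher and 1 lower without overlap, but a median log2 fold change of −0.38, with 5 higher and 8 lower at an unadjusted p-value under 0.05. Dropping U.NK replicate 2 gave 4 and 0 by that count. The expansin-type gene TEA022767 had 113, 117 and 60.8 CPM in Sp.SK libraries and 33, 8.86 and 50.7 CPM in U.NK libraries. The xyloglucan endotransglycosylase gene TEA015891 had 20.5, 21 and 14.4 CPM in Sp.SK libraries and 7.02, 2.4 and 11 CPM in U.NK libraries. In both genes U.NK replicate 2 was the lowest library and U.NK replicate 3 came closest to Sp.SK. In “1601” the same list had 6 members higher (8.57%, against 16% of all genes) and 31 lower (44.3%, against 16.7%). Despite the number of genes without overlap in “1511”, the summed level of the list overlapped there, at 1346, 1317 and 1363 CPM in Sp.SK libraries and 1360, 1983 and 1241 CPM in U.NK libraries.

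Cellulose synthases and COBRA proteins, which build and order cellulose, had 8 of 59 members higher (13.6%) and 2 lower (3.39%) without overlap. For all genes these shares were 7.08% and 6.8%. TEA021184 had 17.5, 14 and 28.8 CPM in Sp.SK libraries and 8.72, 2.51 and 9.5 CPM in U.NK libraries. TEA033287 had 9.96, 11.5 and 13.6 CPM in Sp.SK libraries and 4.59, 2.28 and 7.11 CPM in U.NK libraries. The cellulose degradation list had 7 of 85 members higher (8.24%) and 5 lower (5.88%), near all genes. Its endoglucanase of glycosyl hydrolase family 9, TEA018348, had 3.88, 3.96 and 4.52 CPM in Sp.SK libraries and 0.258, 0.0599 and 1.34 CPM in U.NK libraries, and a β-glucosidase of family 1, TEA001123, had 11.5, 12.4 and 11.9 CPM in Sp.SK libraries and 20.3, 24.3 and 14.6 CPM in U.NK libraries. Among 128 genes of pectin modification, 9 were higher (7.03%) and 11 lower (8.59%) without overlap, near all genes. Pectin methylesterase genes stood on both sides, with TEA032381 at 37.1, 38.5 and 19.5 CPM in Sp.SK libraries and 8.87, 1.68 and 15.7 CPM in U.NK libraries. TEA007999 had 53.4, 23.9 and 16.8 CPM in Sp.SK libraries and 75.6, 191 and 58.2 CPM in U.NK libraries.

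Genes of dividing cells were more often higher than lower on Sp.SK. Of 196 genes of DNA replication, histones, cyclins and kinesins, 27 were higher (13.8%) and 7 lower (3.57%) without overlap. For all genes tested these shares were 7.08% and 6.8%. The median log2 fold change of the list was 0.34. At an unadjusted p-value under 0.05, 48 were higher and 3 lower, against 6.46% and 6.07% of all genes. Dropping U.NK replicate 2 gave 25 higher and 3 lower by this count, against 2.98% and 1.55% of all genes. Dropping U.NK replicate 3 gave 79 and 7, against 12.4% and 10% of all genes. In that fit 23 higher and 0 lower members were called, against 2.09% and 0.994% of all genes. TEA019265, a kinesin motor gene (some kinesins work outside division), had 3.4, 2.43 and 2.71 CPM in Sp.SK libraries and 0.567, 0.898 and 0.932 CPM in U.NK libraries. The replication helicase genes of the MCM family followed, with TEA016461 at 14.2, 12.2 and 8.7 CPM in Sp.SK libraries and 3.92, 2.28 and 7.17 CPM in U.NK libraries. TEA015801, also of the MCM family, had 10.4, 8.03 and 4.58 CPM in Sp.SK libraries and 1.75, 0.539 and 3.26 CPM in U.NK libraries. A histone H2A gene, TEA026755, had 16.1, 10 and 7.17 CPM in Sp.SK libraries and 3.15, 2.63 and 6.18 CPM in U.NK libraries. In each of these genes U.NK replicate 3 was the U.NK library nearest to Sp.SK. Ribosomal protein genes, which follow growth, had 35 of 412 higher (8.5%) and 12 lower (2.91%), with a median of 0.21. Their summed level was 24470, 26660 and 31980 CPM in Sp.SK libraries and 23510, 19080 and 27650 CPM in U.NK libraries, which overlapped. Levels of the dividing-cell list also overlapped, at 4766, 5518 and 5542 CPM in Sp.SK libraries and 4964, 5208 and 4936 CPM in U.NK libraries.

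**Figure D3:**
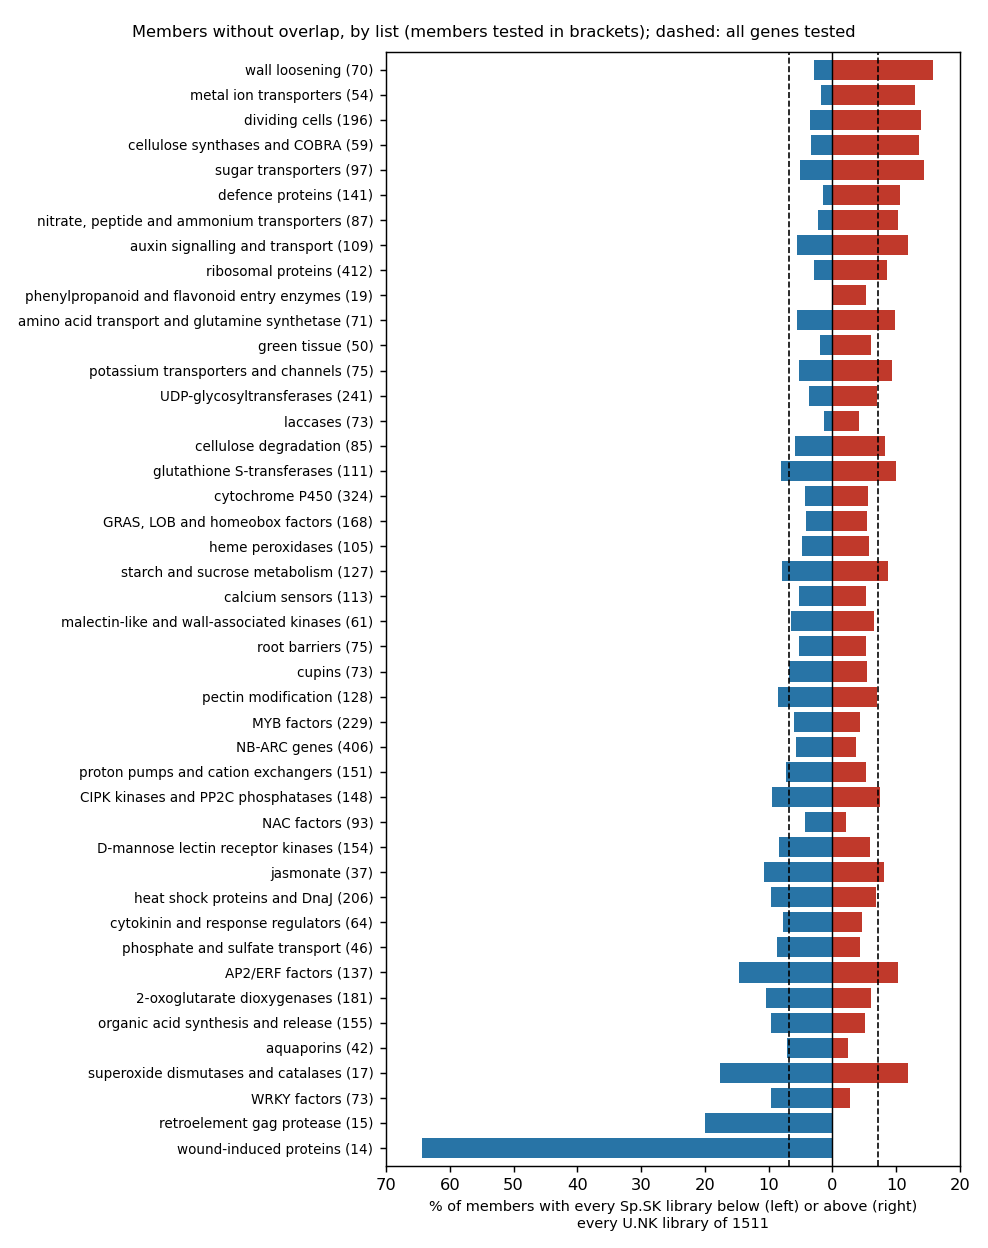
Share of each list's tested members (y axis, number tested in brackets) with all 3 Sp.SK libraries of “1511” below (blue bars to the left) or above (red bars to the right) all 3 U.NK libraries, in percent on the x axis. Dashed lines mark all genes tested, at 6.8% lower and 7.08% higher; wound-induced proteins reach 64.3% lower and wall-loosening genes 15.7% higher.

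Among genes of carbon and phenolic metabolism, starch and sucrose metabolism had 11 of 127 members higher (8.66%) and 10 lower (7.87%) without overlap, near all genes. A sucrose synthase gene, TEA017533, whose enzyme splits sucrose for use in sink tissue, had 596, 489 and 478 CPM in Sp.SK libraries, against 1015, 1961 and 695 CPM in U.NK libraries. A newly assembled β-amylase gene (scaffold 1720, positions 345495 to 361557, minus strand), which overlaps another gene on the opposite strand, had 15.9, 18.4 and 14.1 CPM in Sp.SK libraries and 32.1, 55.3 and 22.7 CPM in U.NK libraries. In Sp.NK these genes were at 536, 347 and 297 CPM and at 18.4, 16.2 and 10.2 CPM, so the side with K was as low. Entry enzymes of phenylpropanoid and flavonoid synthesis numbered 19 in the test, with a median log2 fold change of 0.75 and 6 members higher at an unadjusted p-value under 0.05, but with 1 higher without overlap (5.26%). The chalcone synthase gene TEA023340, at the head of flavonoid synthesis, had 120, 45.7 and 98.1 CPM in Sp.SK libraries and 11, 1.26 and 37.2 CPM in U.NK libraries. Its level on U.SK was 0.49, 1.4 and 0.195 CPM, the lowest of the 4 treatments. The list's summed level overlapped, at 1456, 737 and 1096 CPM in Sp.SK libraries and 663, 675 and 1194 CPM in U.NK libraries. Laccases, cytochrome P450 genes, heme peroxidases and UDP-glycosyltransferases had between 4.11% and 7.05% of members higher and between 1.37% and 4.76% lower, at or under the shares of all genes.

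AP2/ERF and WRKY factors, both linked to stress, were more often lower than higher on Sp.SK with all libraries. Dropping U.NK replicate 2 cut the lower counts, as it did for all genes. NAC factors had 2 of 93 members higher (2.15%) and 4 lower (4.3%) without overlap, both under the 7.08% and 6.8% of all genes. At an unadjusted p-value under 0.05, 3 NAC factors were higher and 10 lower. AP2/ERF factors, which include ethylene response factors, had 20 of 137 members lower (14.6%) and 14 higher (10.2%) without overlap, both above all genes. At an unadjusted p-value under 0.05, 11 were higher and 23 lower, against 6.46% and 6.07% of all genes. With U.NK replicate 2 dropped 9 were higher and 5 lower, against 2.98% and 1.55% of all genes. With U.NK replicate 3 dropped, edgeR called 5 higher and 3 lower, against 2.09% and 0.994% of all genes. TEA003699 had 18.8, 18.2 and 19.4 CPM in Sp.SK libraries and 52.6, 125 and 30.1 CPM in U.NK libraries. TEA017531 had 24.4, 16.3 and 25.8 CPM in Sp.SK libraries and 60.7, 186 and 37.8 CPM in U.NK libraries. In “1601” 50 members were lower without overlap (36.5%, against 16.7% of all genes), and 17 of 137 members were lower in both genotypes, against 891 of 35557 genes. An AP2/ERF gene in the other direction, TEA008439, had 32.4, 32.5 and 33.7 CPM in Sp.SK libraries and 22.3, 13.6 and 21 CPM in U.NK libraries. WRKY factors, known from defence and stress, had 2 of 73 members higher (2.74%) and 7 lower (9.59%), against 7.08% and 6.8% of all genes. Their median log2 fold change was −0.18, and was 0 with U.NK replicate 2 dropped. At an unadjusted p-value under 0.05, 1 was higher and 6 lower, and with U.NK replicate 2 dropped 0 and 2. In “1601” 31 WRKY genes were lower (42.5%, against 16.7%), and 1 of 73 was lower in both genotypes. Universal stress proteins, a Pfam entry picked after its values were seen, had 1 of 43 members higher and 9 lower (20.9%). At an unadjusted p-value under 0.05, 9 of them were lower, and 1 with U.NK replicate 2 dropped.

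Of 37 jasmonate genes, 3 were higher (8.11%) and 4 lower (10.8%) without overlap, against 7.08% and 6.8% of all genes. A newly assembled JAZ-type repressor gene (scaffold 422, positions 248241 to 266421) had 182, 168 and 181 CPM in Sp.SK libraries and 321, 447 and 215 CPM in U.NK libraries. The lipoxygenase gene TEA012289 had 87.2, 41.2 and 58.2 CPM in Sp.SK libraries and 109, 178 and 97.4 CPM in U.NK libraries. A newly assembled lipoxygenase gene (scaffold 1939, positions 449404 to 456993), which overlaps another gene on the opposite strand, was on the other side, with 15.6, 5.17 and 12.8 CPM in Sp.SK libraries and 1.81, 0.539 and 5.13 CPM in U.NK libraries. Auxin genes had 13 of 109 members higher (11.9%) and 6 lower (5.5%). The auxin response factor gene TEA014343 had 28.5, 25.1 and 35.5 CPM in Sp.SK libraries and 17, 14.7 and 22.4 CPM in U.NK libraries. The PIN-type carrier gene TEA016171, with 5.77, 8.21 and 10.3 CPM in Sp.SK libraries and 2.12, 0.778 and 4.49 CPM in U.NK libraries, lies on the same scaffold as TEA016242 below. A newly assembled pseudo-response regulator gene (scaffold 3537, positions 695700 to 703489) had 45.9, 53.8 and 51.4 CPM in Sp.SK libraries and 81.5, 95.7 and 61.8 CPM in U.NK libraries.

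Stress proteins were mixed. Heat shock and DnaJ genes had 14 of 206 members higher (6.8%) and 20 lower (9.71%) without overlap, against 7.08% and 6.8% of all genes. The Hsp70 gene TEA000214 had 326, 489 and 404 CPM in Sp.SK libraries and 185, 167 and 272 CPM in U.NK libraries. The Hsp90 gene TEA017408 had 134, 165 and 141 CPM in Sp.SK libraries and 88.3, 45.1 and 115 CPM in U.NK libraries. Both large chaperones were higher, whereas the small heat shock gene TEA004370 had 23.2, 13.3 and 20.3 CPM in Sp.SK libraries and 36.2, 227 and 26.7 CPM in U.NK libraries. Defence proteins had 15 of 141 members higher (10.6%) and 2 lower (1.42%), against 7.08% and 6.8% of all genes. Their median log2 fold change was 0.02. The list's summed level overlapped, at 8912, 4822 and 8346 CPM in Sp.SK libraries and 6686, 15810 and 9172 CPM in U.NK libraries. At an unadjusted p-value under 0.05, 14 were higher and 4 lower, and with U.NK replicate 2 dropped 5 and 1. A higher member, the thaumatin gene TEA025008, had 13.6, 13.3 and 16.7 CPM in Sp.SK libraries and 3.51, 0.659 and 10.8 CPM in U.NK libraries. A newly assembled iron/manganese superoxide dismutase gene (scaffold 483, positions 726941 to 735311) had 282, 159 and 207 CPM in Sp.SK libraries and 421, 467 and 436 CPM in U.NK libraries. The dirigent gene TEA002779, of a family that guides lignin and lignan coupling, had 31.9, 28.2 and 50.3 CPM in Sp.SK libraries and 10.4, 6.05 and 25.8 CPM in U.NK libraries. The remaining lists, from NB-ARC genes to calcium sensors, are in the plot of shares by list.

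The genes with the lowest unadjusted p-values, among those with a Pfam entry, at least 5 CPM in the higher group and no overlap (4.03% of genes tested higher and 4.61% lower), give 12 in each direction, and edgeR called none of the 24 with all libraries. DESeq2 on the 6 libraries called 6 of the higher and 6 of the lower genes, and limma voom with quality weights 12 and 11. In edgeR without U.NK replicate 3, 11 of the 12 higher and 12 of the 12 lower genes had an adjusted p-value under 0.05, and without U.NK replicate 2 none had. The oxidoreductase gene TEA021638 (FAD-binding domain, scaffold 3619, positions 1441672 to 1452465) had 5.6, 4.26 and 5.99 CPM in Sp.SK libraries and 1.91, 1.56 and 1.34 CPM in U.NK libraries. Its log2 fold change was 1.72 ± 0.3 (SE, n = 3 each, edgeR, unadjusted p = 1.2e-05, adjusted p = 0.257). A newly assembled γ-thionin (defensin) gene (scaffold 3154, positions 787944 to 790533) had 33.3, 30.7 and 37.5 CPM in Sp.SK libraries and 8.36, 3.17 and 16.6 CPM in U.NK libraries. The AP2/ERF gene TEA012509 (scaffold 4413, positions 341044 to 342337) had 7.25, 7.18 and 4.12 CPM in Sp.SK libraries and 0.619, 0.599 and 1.92 CPM in U.NK libraries. It was listed with no read in any U.SK library, so the K-free side of split roots and roots without any K stood at opposite ends. The receptor-like kinase gene TEA025420 with leucine-rich repeats had 18.9, 11.3 and 15.8 CPM in Sp.SK libraries and 4.59, 3.71 and 8.45 CPM in U.NK libraries. The tightest separation was in the F-box gene TEA009662, whose products mark proteins for breakdown, with 10, 12.1 and 12.7 CPM in Sp.SK libraries and 6.76, 7 and 7.69 CPM in U.NK libraries. TEA031542, with the domain of biotin-carrying enzymes, had 21.2, 20.9 and 22.1 CPM in Sp.SK libraries and 13.4, 10.6 and 11 CPM in U.NK libraries. This domain was the entry with the largest share of higher members among 470 Pfam entries with at least 15 genes tested, at 6 of 16 (37.5%). The remaining higher genes were a newly assembled one with an RmlD substrate-binding domain (scaffold 6577, positions 421873 to 424712), TEA014269, TEA021881, TEA021989, TEA026804 and TEA034012, with log2 fold changes from 1.05 to 2.34.

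On the lower side, the galactose oxidase-like gene TEA013377 (scaffold 8071, positions 193129 to 194754) had 5.39, 5.23 and 4.63 CPM in Sp.SK libraries, against 20.5, 21.9 and 13 CPM in U.NK libraries. Its log2 fold change was −1.86 ± 0.39 (SE, n = 3 each, edgeR, unadjusted p = 0.000112, adjusted p = 0.278). TEA029655, of an uncharacterised family, had 189, 239 and 132 CPM in Sp.SK libraries and 628, 1465 and 380 CPM in U.NK libraries. The NF-Y-type transcription factor gene TEA022201 had 56.3, 62 and 69.8 CPM in Sp.SK libraries and 115, 142 and 80.3 CPM in U.NK libraries. The aminotransferase gene TEA025478 had 67.6, 55.3 and 65.8 CPM in Sp.SK libraries and 133, 243 and 96.7 CPM in U.NK libraries. In these genes U.NK replicate 2 was the highest library and U.NK replicate 3 the lowest of its group. The lectin receptor kinase gene TEA000216 had 9.93, 11.7 and 8.93 CPM in Sp.SK libraries and 12.6, 54.5 and 19.2 CPM in U.NK libraries. Narrow separations were found in a newly assembled syntaxin gene (scaffold 432, positions 2160661 to 2166531), with 75, 81.8 and 81.5 CPM in Sp.SK libraries and 112, 134 and 92.7 CPM in U.NK libraries, and the aldose epimerase gene TEA025045, with 90.7, 84.5 and 85.2 CPM in Sp.SK libraries and 131, 139 and 108 CPM in U.NK libraries. TEA001928, TEA003400, TEA004885, TEA019758 and TEA021126 make up the rest, with log2 fold changes from −3.63 to −1.25.

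**Figure D4:**
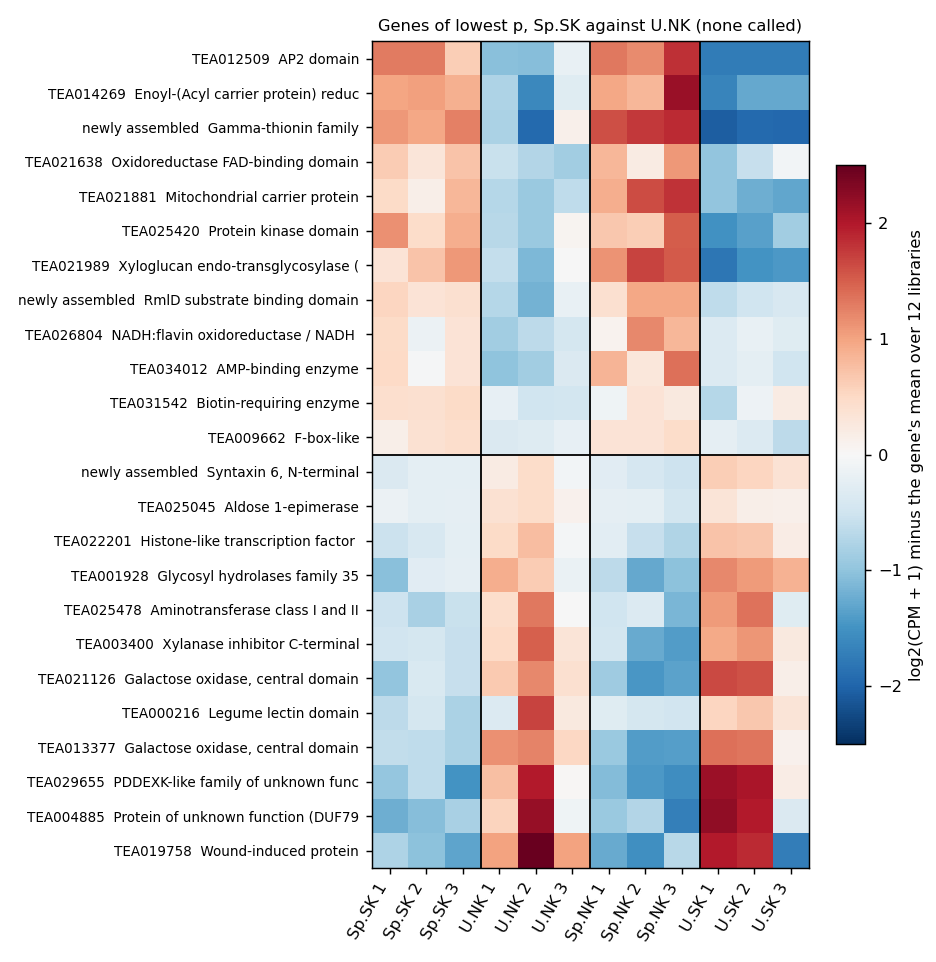
Centred log2(CPM + 1) of the 24 genes (rows) in the 12 libraries of “1511” (columns, Sp.SK, U.NK, Sp.NK and U.SK, replicates 1 to 3), red for above and blue for below the gene's own mean, ordered by fold change with the 12 higher genes on top. The Sp.NK columns look like the Sp.SK columns, and within U.NK replicate 2 is the most and replicate 3 the least different from Sp.SK in most rows.

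The study itself named several genes on libraries of this series, so their direction is not independent here, and edgeR called none. Its statements were not worded for Sp.SK against U.NK, so they were not tested here. It gave the cellulose genes below, TEA014414 and TEA023084 as higher under heterogeneous than under homogeneous K, only in this genotype. For the cellulose genes it stressed the Sp.NK side. It gave TEA016242 and TEA008360 as up-regulated in this genotype under K stress. The endoglucanase gene TEA026325, which cuts cellulose chains, had 69.5, 58.1 and 59.8 CPM in Sp.SK libraries and 24.4, 4.61 and 49.7 CPM in U.NK libraries. The β-glucosidase gene TEA008079 (it overlaps TEA008101 on the opposite strand) had 26.1, 16.9 and 17 CPM in Sp.SK libraries and 10.5, 4.55 and 20.1 CPM in U.NK libraries. The family 3 hydrolase gene TEA019040 had 40.2, 34 and 23.1 CPM in Sp.SK libraries and 6.81, 9.94 and 54 CPM in U.NK libraries. Without overlap stood only the first of these cellulose genes. The phosphorylase gene TEA014414 had 13.9, 10.5 and 9.66 CPM in Sp.SK libraries and 5.57, 1.38 and 11.4 CPM in U.NK libraries, and the nucleotidyl transferase gene TEA023084 had 3.3, 4.62 and 2.49 CPM in Sp.SK libraries and 1.86, 1.98 and 2.33 CPM in U.NK libraries. The superoxide dismutase gene TEA008360 had 6.22, 4.56 and 5.08 CPM in Sp.SK libraries and 3.61, 3.11 and 2.56 CPM in U.NK libraries, without overlap (log2 fold change 0.77 ± 0.32, SE, n = 3 each, edgeR adjusted p = 0.338). The PIN-type carrier gene TEA016242 had 31.4, 31 and 42.6 CPM in Sp.SK libraries and 36.7, 43.9 and 29.1 CPM in U.NK libraries. Its log2 fold change was −0.06 ± 0.24. The study described this gene as related to K transport, which differs from the PIN-type description used here.

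Whether the K-free side differed from the K side of the same plants was tested between Sp.SK and Sp.NK of “1511”. edgeR called 0 of 35557 genes (0%), with a lowest adjusted p-value of 0.936, and 1698 genes (4.78%) were under 0.05 before adjustment, 2.73% higher and 2.05% lower. DESeq2 on these 6 libraries called 5 genes and limma voom 0. The labels do not link a Sp.SK library to the Sp.NK library of the same plants, so the sides could not be compared within plants. The lowest p-value was that of TEA012928, a gene without a Pfam entry, with 9.38, 12 and 13.6 CPM in Sp.SK libraries and 18.1, 20.5 and 28.9 CPM in Sp.NK libraries. In U.NK libraries it had 6.45, 3.95 and 7.58 CPM, so the K-free side lay between Sp.NK and U.NK. A newly assembled NB-ARC gene (scaffold 2733, positions 1039543 to 1046194), of the class of immune receptors, had 3.88, 2.43 and 2.66 CPM in Sp.SK libraries and 1.73, 0.95 and 1.65 CPM in Sp.NK libraries. A newly assembled gene without a Pfam entry (scaffold 32068, positions 18 to 2913) had 1.86, 1.1 and 1.3 CPM in Sp.SK libraries and 0.0523, 0 and 0 CPM in Sp.NK libraries. The copine gene TEA010092 and the unannotated TEA014486, whose Sp.NK replicates had 1.83, 28.9 and 5.59 CPM, complete the lowest 5. A newly assembled GH3-type gene (scaffold 666, positions 823635 to 825119), of a family that conjugates auxin and jasmonate, was near 0 in the other treatments of “1511”, with 2.1, 1.64 and 1.3 CPM in Sp.SK libraries, 0.105, 0 and 0.0532 CPM in Sp.NK libraries and 0.0516, 0 and 0 CPM in U.NK libraries. It was picked after its values were seen, and edgeR called it neither against U.NK nor against Sp.NK, whereas DESeq2 on the 6 libraries called it against U.NK (adjusted p = 0.00125).

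Whether the change on the K-free side differed between the genotypes was tested as the Sp.SK against U.NK change of “1511” minus that of “1601”. edgeR called 101 of 35557 genes (0.284%), 80 of them with a higher change in “1511” (0.225%) and 21 with a lower one (0.0591%). The count was between 18 and 292 when 1 library was left out, lowest without U.NK replicate 1 of “1511” and highest without its U.NK replicate 3. In most of the genes named here the Sp.SK level was above U.NK in “1511” and below it in “1601”. The gene of lowest p, newly assembled and without a Pfam entry (scaffold 1478, positions 220599 to 223104), had 6.49, 5.6 and 3.67 CPM in Sp.SK libraries and 2.12, 1.14 and 3.09 CPM in U.NK libraries of “1511”. In “1601” it had 7.83, 4.37 and 5.6 CPM in Sp.SK libraries and 51.9, 82.1 and 53.7 CPM in U.NK libraries, so most of the difference was the high level in U.NK of “1601”. The receptor-like kinase gene TEA021964, with a carbohydrate-binding domain, had 3.81, 5.17 and 3.45 CPM in Sp.SK libraries and 1.96, 1.44 and 2.97 CPM in U.NK libraries of “1511”. In “1601” it had 1.71, 1.23 and 1.91 CPM in Sp.SK libraries and 10.1, 10.3 and 8.08 CPM in U.NK libraries. The difference was 3.51 ± 0.46 on the log2 scale (SE, n = 3 in each of 4 groups, edgeR adjusted p = 0.00386). TEA010169, with a nucleotide pyrophosphohydrolase domain, had 50, 43.8 and 41.6 CPM in Sp.SK libraries and 9.65, 10.4 and 40.3 CPM in U.NK libraries of “1511”, where U.NK replicate 3 was at the Sp.SK level. In “1601” it had 1.71, 1.82 and 2.72 CPM in Sp.SK libraries and 27.5, 44.5 and 38.8 CPM in U.NK libraries. The MATE transporter gene TEA002881 overlapped in “1511”, with 14.5, 16.6 and 20.4 CPM in Sp.SK libraries and 12, 19.6 and 14.1 CPM in U.NK libraries. In “1601” it had 0.32, 0.147 and 0.255 CPM in Sp.SK libraries and 4.34, 1.94 and 3.7 CPM in U.NK libraries. The glycosyltransferase gene TEA031526 likewise overlapped in “1511”, and in “1601” had 2.56, 2.36 and 2.25 CPM in Sp.SK libraries and 12.6, 12.9 and 13.6 CPM in U.NK libraries.

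Wall, defence and transport genes described above were among the 101. The xyloglucan endotransglycosylase gene TEA021989 had 8.21, 10.9 and 14.3 CPM in Sp.SK libraries and 3.77, 2.34 and 6.18 CPM in U.NK libraries of “1511”. In “1601” it had 22.9, 55.8 and 46.3 CPM in Sp.SK libraries and 147, 114 and 121 CPM in U.NK libraries (difference 3.05 ± 0.46, SE, n = 3 in each of 4 groups, edgeR adjusted p = 0.00556). The AP2/ERF gene TEA012509 had 4.21, 3.59 and 5.43 CPM in Sp.SK libraries and 10.7, 7.71 and 7.93 CPM in U.NK libraries of “1601”, opposite to its order in “1511” (edgeR adjusted p = 0.0289). The ALMT gene TEA013305 had 5.86, 4.81 and 6.41 CPM in Sp.SK libraries and 12, 10.4 and 8.15 CPM in U.NK libraries of “1601” (edgeR adjusted p = 0.0482). The mitochondrial carrier gene TEA021881, the γ-thionin gene, the endoglucanase gene TEA002154, the cytochrome P450 gene TEA019521 and a newly assembled expansin-type gene (scaffold 3759, positions 1021 to 3474) were called in the same direction. By list, 6 of 324 cytochrome P450 genes and 4 of 85 cellulose degradation genes were called, against 0.284% of all genes tested. Of 70 wall-loosening genes 2 were called. Calls were found in 0 of 75 K transporters and channels and in 0 of 196 dividing-cell genes. At the share of all genes, lists of this size would hold few or no calls.

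**Figure D5:**
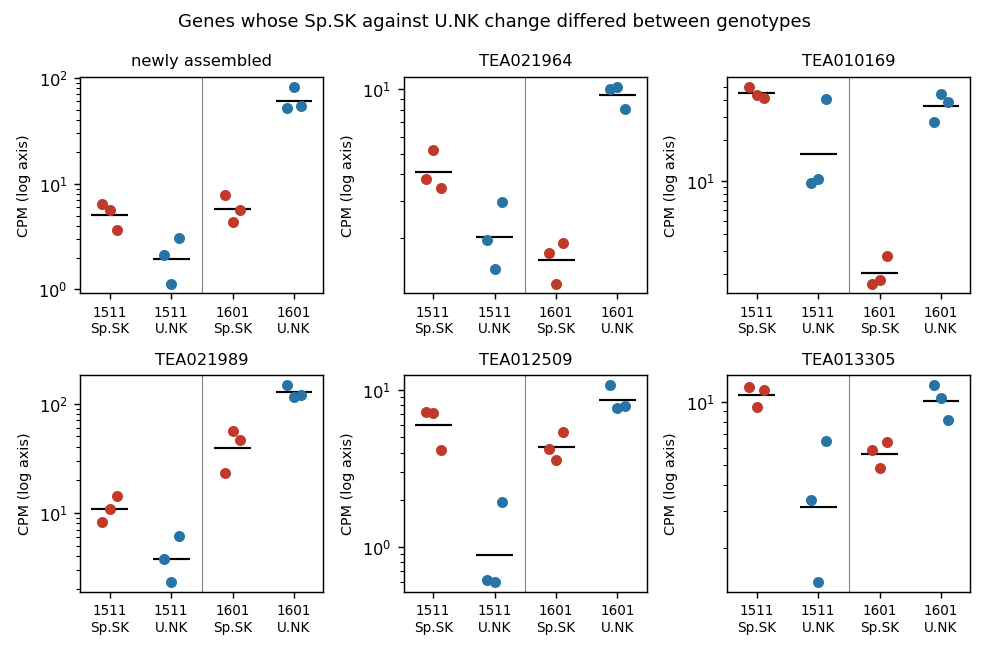
CPM on a log axis (y) of 6 genes in Sp.SK (red) and U.NK (blue) libraries of “1511” and “1601” (x), 1 point per library and a bar at the geometric mean of 3 libraries. The first panel is the newly assembled gene on scaffold 1478. In “1511” the Sp.SK libraries are above the U.NK libraries, and in “1601” below them, in each of the 6 genes. The 6 are a selection from the genes called. TEA031526 and TEA002881, also among the genes of lowest p, overlapped in “1511” and are not shown.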

How the data were processed

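RNA was extracted from roots, and reads were cleaned and aligned by the authors with HISAT2 2.0.5 to a tea genome assembled in scaffolds, with that assembly's annotation. Genes newly assembled from the reads were added by the authors and are given here by scaffold and position. The program that counted reads, and whether it used strand or shared reads between related genes, is not given in the sources used here. The deposited counts are whole numbers of reads per gene (48505 genes) with no normalization. FPKM values, also deposited, were used only among K transporters and channels.

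Counts were analysed in R 4.3.3 with edgeR 4.0.16. filterByExpr kept 35557 genes, 25688 annotated and 9869 newly assembled, of which 24481 have a Pfam description. After TMM scaling, 8 group means were fitted to 24 libraries (16 residual degrees of freedom) by glmQLFit, tested by glmQLFTest, with Benjamini-Hochberg adjustment over all genes tested. The comparisons were Sp.SK with U.NK and Sp.SK with Sp.NK in “1511”, and the first as a difference between genotypes. With 3 libraries against 3, an exact permutation test cannot pass the threshold and was not used. Counting intervals are not given, since the spread between replicates is larger than counting error for most genes named.

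Lists were words or entries matched to Pfam descriptions (44 lists). The libraries, lists and tests were chosen with earlier results of these data known. The wound-induced and retroelement lists were added after values were seen. The rule for named genes was up to 12 called genes per direction with a Pfam entry, a mean of at least 5 CPM in the higher group and no overlap, by largest difference. Since none was called, those of lowest unadjusted p-value were taken. Added to these were examples from the lists, 7 genes that the study named, and the 5 of lowest p-value in each of the other comparisons. The rule for Pfam entries needed called genes and selected none, so entries named were chosen after their values were seen. Alternatives were DESeq2's size factors, other filters on low counts (none, or at least 10 counts in every library), fewer libraries, the replicate number as a term, DESeq2 1.42.0, limma 3.58.1 with voom and quality weights, newly assembled genes left out, and each library left out. The scripts were tested on simulated data. No sequences are printed, and a table of reference gene names matched 0 identifiers.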

Additional observations from a re-analysis of the deposited data

Results flagged for a closer look

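A total of 101 genes differed between the genotypes in their Sp.SK against U.NK change by edgeR's quasi-likelihood test of the difference itself (adjusted p-value under 0.05). Among the genes named, the fitted differences of “1511” minus “1601” on the log2 scale were 4.71 for the newly assembled gene on scaffold 1478, 3.51 for TEA021964, 2.69 for TEA031526, 3.92 for TEA002881 and 5.31 for TEA010169. They were 3.18 for the mitochondrial carrier gene TEA021881, 3.05 for the xyloglucan endotransglycosylase gene TEA021989, 3.56 for the AP2/ERF gene TEA012509 and 2.54 for the γ-thionin gene on scaffold 3154. The endoglucanase gene TEA002154 had 3.48 and the ALMT gene TEA013305 had 2.36. The cytochrome P450 gene TEA019521 had 5.31, the expansin-type gene on scaffold 3759 had 8.67 and the GH3-type gene on scaffold 666 had 11.31. The values of these last genes rest on libraries with few or no reads in a group and depend on the fit, so they are not folds to be read at face value. In all of them the level in U.NK of “1601” was above that in Sp.SK of “1601” by the mean. Groups of 3 libraries were too small for a test of single libraries that stand apart.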

How the results depend on the processing

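The count for Sp.SK with U.NK was 0 under DESeq2's size factors, both filters on low counts, the 12 libraries of “1511”, only the 6 libraries, and newly assembled genes left out. DESeq2 on the 6 libraries called 180 genes and limma voom with quality weights 6000, and the count was between 0 and 1123 with 1 library left out, 1123 without U.NK replicate 3. For Sp.SK with Sp.NK, DESeq2 called 5 genes and the count was between 0 and 1 with 1 library left out. The difference between genotypes had 32 calls on the 12 libraries compared, 692 by DESeq2, 5091 by limma voom, and between 18 and 292 with 1 library left out. Same-numbered libraries of Sp.SK and U.NK, which are different plants, did not deviate together from their group means (r = −0.048, 0.042 and −0.211). For Sp.SK and Sp.NK the values were 0.052, −0.06 and −0.223. With 3 libraries per group, this check cannot settle whether a number marks a shared box. With the replicate block the counts were 0, 0 and 95, with 4635 genes at an unadjusted p-value under 0.05 for Sp.SK with U.NK. The log2 fold change of TEA016242 was near 0 and changed sign, between −0.23 and 0.091 with 1 library left out. Of the 94 genes followed, the other 93 kept their direction wherever they were tested. DESeq2 called 30 of the 94, limma voom 82 and the fit without U.NK replicate 3 62, and the fit without U.NK replicate 2 none. The cause of these differences was not tested. The depth of 15798906 to 26309637 reads limits genes under about 1 CPM, where few reads stand behind a value.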

Other observations

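Retroelement genes showed which libraries carried a large fold change. Of 17 genes with the gag-polyprotein aspartyl protease entry, 15 were tested, with a median log2 fold change of −3.27 in Sp.SK against U.NK and 9 genes lower at an unadjusted p-value under 0.05 (edgeR, none called). Without U.NK replicate 2 the median was −0.71 and 0 genes were lower at that threshold. Their summed level was 13.4, 20.5 and 14.9 CPM in Sp.SK libraries, against 29.7, 134 and 17.5 CPM in U.NK libraries, and it was 724, 455 and 37.7 CPM in U.SK libraries. The newly assembled gene on scaffold 3382 (positions 498926 to 500420) had 0.412, 0.0609 and 0.17 CPM in Sp.SK libraries and 1.65, 12.1 and 0.117 CPM in U.NK libraries, and it had 124, 94.3 and 0.195 CPM in U.SK libraries. Another, on scaffold 1742 (positions 952020 to 953605), had 112, 67.8 and 0.26 CPM in U.SK libraries. The level was thus high in U.SK replicates 1 and 2 and in U.NK replicate 2, and low in U.SK replicate 3. These elements are repeated in the genome and reads that match several copies may have been shared between them. The small heat shock gene TEA004370 had the same order, with 1049, 888 and 42.8 CPM in U.SK libraries and 227 CPM in U.NK replicate 2.

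The wall-loosening list and the cupin list differed in direction or extent between the genotypes by their counts, which were not tested. Cupins, a family of storage and germin-like proteins, had 5 of 73 members lower on Sp.SK without overlap in “1511” (6.85%) and 42 in “1601” (57.5%, against 16.7% of all genes). Ribosomal protein genes had 35 of 412 higher in “1511” (8.5%) and 157 in “1601” (38.1%, against 16%), of which 17 were higher in both, against 874 of all 35557 genes.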
